A study of Homo sapiens with 15 samples.

Results

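CCL2, CCL5, CCL20, CCL26 and CCL28 encode CC chemokines, secreted proteins named for a pair of adjacent cysteines. Their transcripts were followed in A549, a human lung carcinoma line, exposed to geldanamycin, a compound that inhibits the HSP90 chaperone. The 5 genes were picked by name with earlier results of these arrays in view, so their differences between groups are given as descriptions, without p-values. They are 5 of 19775 genes measured, and they are read by 9 of 41091 probe sets that carry a single gene symbol. Total RNA was hybridised to 15 Affymetrix HG-U133 Plus 2.0 arrays, 3 in each of 5 groups. The groups were 40 nM geldanamycin for 24 h and its vehicle for 24 h, then vehicle, 10 nM and 40 nM for 48 h. The vehicle was DMSO at 0.4%, cells were seeded 24 h before treatment, and the labels give 40 nM as the IC50 and 10 nM as the IC20. All groups are of the same carcinoma line, with no other cell type in the culture and no added cytokine named in the labels. The labels do not say whether the 3 arrays of a group came from separate cultures, so the tests measure the spread between arrays, which may be technical.

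Chemokines bind G protein-coupled receptors on leukocytes and draw these cells along a gradient. Airway epithelium makes them in response to cytokines and microbial products, in large part through NF-kB, interferon regulatory factors and, for CCL26, the IL4 and IL13 signal carried by STAT6. CCL2 draws monocytes through CCR2, and CCL5 draws T cells, monocytes and eosinophils through several receptors. CCL20 acts on CCR6 of dendritic cells, B cells and T cells. CCL26 is an eotaxin that acts on eosinophils, and CCL28 is a mucosal chemokine that acts through CCR10 on plasma cells and T cells.

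Promoter windows of RefSeq (GRCh38.p14), which run from 250 bases before a transcript start to 50 bases after it, were found for 3 of the 5 genes, CCL20, CCL26 and CCL28. Those of CCL20 and CCL26 are shown because these genes had their highest values in different groups, CCL20 at 48 h and CCL26 at 24 h. The CCL20 window lies at chr2:227813592-227813891 on the plus strand and the CCL26 window at chr7:75789697-75789996 on the minus strand, each printed 5′ to 3′ along the gene. The CCL20 window is at the outermost start of its gene in RefSeq, whereas the CCL26 window is at a start 1851 bases (GRCh38.p14) inside its gene, and the outermost start of CCL26 was not searched. Capitals mark matches to an NF-kB consensus and to TATAAA. These were searched on both strands together with TTCNNNNGAA, the spacing that STAT6 binds.
CCL20: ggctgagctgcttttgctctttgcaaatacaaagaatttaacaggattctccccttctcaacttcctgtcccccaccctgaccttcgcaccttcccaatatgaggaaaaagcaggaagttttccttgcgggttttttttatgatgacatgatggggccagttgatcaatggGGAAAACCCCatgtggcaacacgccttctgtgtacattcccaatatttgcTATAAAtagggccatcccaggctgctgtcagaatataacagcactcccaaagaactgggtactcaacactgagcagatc
CCL26: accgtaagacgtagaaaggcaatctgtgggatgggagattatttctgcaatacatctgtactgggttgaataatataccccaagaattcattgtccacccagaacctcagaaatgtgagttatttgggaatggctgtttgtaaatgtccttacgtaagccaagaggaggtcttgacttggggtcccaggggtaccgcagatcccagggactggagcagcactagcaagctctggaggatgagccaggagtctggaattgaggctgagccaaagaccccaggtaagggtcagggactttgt
The CCL20 window held a match to the NF-kB consensus from 79 to 70 bases before the transcript start, on the minus strand, and a TATAAA from 29 to 24 bases before it. No match to the 3 patterns was in the CCL26 window, nor in either of the CCL28 windows. Of 35116 such windows over all genes, 11.3% held the NF-kB consensus, 6.44% TTCNNNNGAA and 11.5% TATAAA. A match describes the letters and was not tested as a binding site.

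Values are log2 expression values made by RMA, so a difference of 1 is a 2-fold change, and they are compared within a probe set. A gene is read from its probe set with the highest mean over all arrays. The "±" after a difference is its standard error in a limma fit of all 15 arrays, and the "±" after a level is the SD over 3 arrays. Averaged over all probe sets, the 40 nM arrays of 24 h had 5.14 and their vehicle arrays 5.13, and the average lay between 5.51 and 5.53 on every array at 48 h. A level at 48 h set beside one at 24 h therefore also holds any offset between the arrays of the 2 times, whose source the labels do not give, whereas differences within a time do not. RNA was taken from whole cultures, so more cells making a transcript and more RNA per cell cannot be told apart.

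The 10 nM arrays stood apart in their control probe sets. The mean of 24 probe sets for poly-A spikes, bacterial transcripts added before labelling, was 3.37 ± 0.04 at 10 nM, against 5.93 ± 0.06 with vehicle for 48 h. The 3′ minus 5′ difference of ACTB was 2.68 ± 0.03 at 10 nM, against 0.35 ± 0.06 with vehicle, while that of GAPDH was 0.13 and 0.15. On the 40 nM arrays at 48 h the spike mean was 5.81 ± 0.08 and the ACTB difference 0.44 ± 0.03. The part of these array differences in any value at 10 nM was not tested. Of 6 epithelial and carcinoma markers, the keratins KRT8, KRT18 and KRT7 lay above the 99th percentile of probe sets in every group, a percentile that also depends on the probes. CDH1 lay at percentiles of 73.4 to 95.9, KRT19 of 56.3 to 88.96 and EPCAM of 43.3 to 60.3. At 40 nM 5 of the 6 were called higher and 1 lower at each time, and at 10 nM 2 higher and 2 lower. Of all genes, 14.8% were called higher and 16.7% lower at 40 nM for 24 h. For 48 h the shares were 10.5% and 10.7% at 40 nM, and 14.4% and 11.9% at 10 nM. CDH1, the adhesion protein E-cadherin, averaged 10.16 at 40 nM for 24 h, against 7.36 with vehicle for 24 h. KRT19 averaged 5.90 at 10 nM, against 8.31 with vehicle and 8.95 at 40 nM for 48 h, and 4.85 with vehicle for 24 h. Of 6 fibroblast markers 0 were called higher and 2 lower at 10 nM, and 1 higher and 1 lower at 40 nM for 48 h. LUM of that list averaged 2.92 at 10 nM, against 6.37 with vehicle for 48 h and 2.53 with vehicle for 24 h. The part of these markers in the chemokine values was not tested. Of 7 markers of alveolar type 2 cells 6 were measured, with ABCA3, SFTPB, SFTPC and NAPSA above the 50th percentile in every group (56.3 to 81.6) and SFTPD and LAMP3 below it (10.1 to 29.2). None of the 6 was called at 40 nM and 1 was called higher at 10 nM. Of all genes, 31.5% were called in either direction at 40 nM for 24 h, 21.3% at 40 nM for 48 h and 26.3% at 10 nM. Of 10 measured leukocyte markers, PTPRC lay at percentiles of 19.5 to 26.2, and the highest percentile was that of CD14, 68.2 at 40 nM for 48 h, against 59.1 with vehicle for 48 h. ITGAM averaged 4.41 with vehicle, 5.52 at 10 nM and 5.62 at 40 nM for 48 h. The median difference of the 10 from vehicle for 48 h was -0.04 at 10 nM and 0.01 at 40 nM.

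CCL2 and CCL20 shared a pattern: each was higher at 40 nM at both times and higher at 40 nM than at 10 nM. CCL2, the monocyte chemokine, had 8.56, 8.43 and 8.65 with 40 nM for 24 h, against 7.02, 6.96 and 6.64 with vehicle for 24 h. Every 40 nM array lay above every vehicle array, and the difference was 1.68 ± 0.09, or 3.20-fold. At 48 h CCL2 had 9.56, 9.39 and 9.41 with vehicle, 10.63, 10.67 and 10.51 at 10 nM, and 12.61, 12.70 and 12.63 at 40 nM. The 3 groups did not overlap and stood in the order of dose. The difference from vehicle was 1.15 ± 0.09 (2.21-fold) at 10 nM and 3.19 ± 0.09 (9.15-fold) at 40 nM, the third highest of all genes at 40 nM for 48 h. The difference between 40 nM and 10 nM was 2.05 ± 0.09, or 4.13-fold. The only single-symbol probe set of CCL2, 216598_s_at, is of a class (suffix _s_at) whose probes can match more than 1 transcript, so CCL2 has no second probe set to set beside it.

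CCL20, the ligand of CCR6, had 5.36, 5.59 and 5.82 with 40 nM for 24 h, against 3.97, 4.21 and 3.99 with vehicle for 24 h. The groups did not overlap, and the difference was 1.53 ± 0.10 (2.89-fold). At 48 h it had 7.68, 7.53 and 7.59 with vehicle, 9.06, 9.05 and 8.90 at 10 nM, and 11.03, 10.97 and 11.07 at 40 nM. Again each dose lay wholly above the group before it. The difference from vehicle was 1.40 ± 0.10 (2.64-fold) at 10 nM and 3.42 ± 0.10 (10.7-fold) at 40 nM, the highest of all 19775 genes at 40 nM for 48 h. Between 40 nM and 10 nM it was 2.02 ± 0.10, or 4.05-fold.

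**Figure D1:**
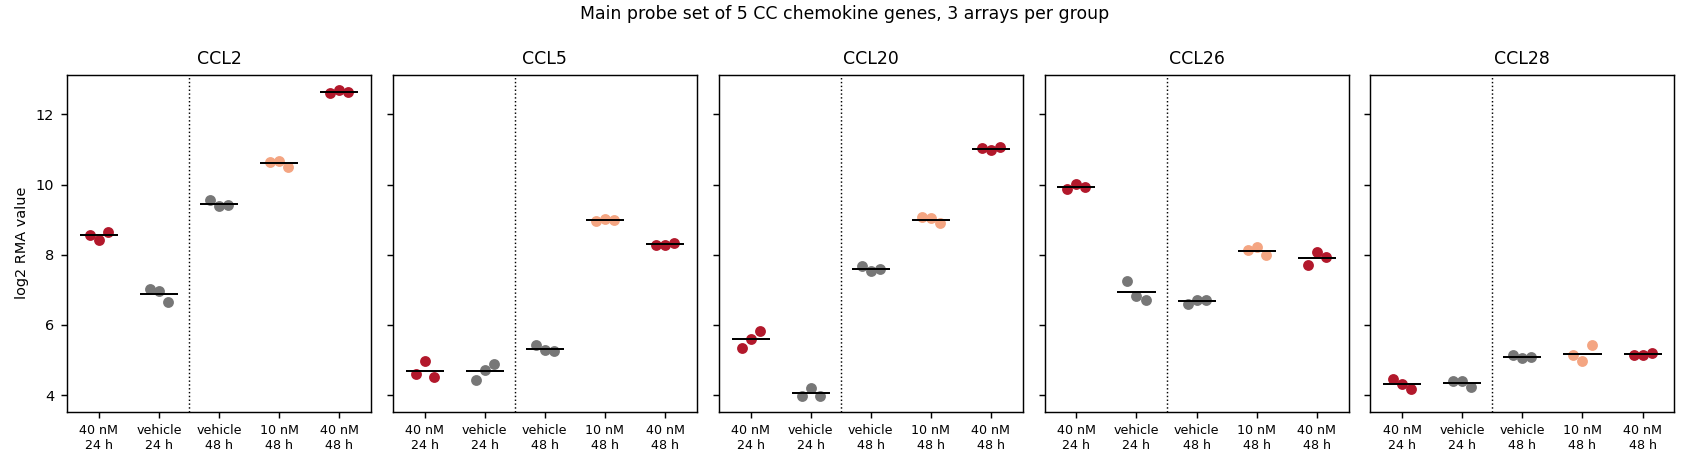
Log2 RMA value (vertical axis) of the main probe set of each gene on the 3 arrays of each group (points, with the mean as a line), the dotted line parting 24 h from 48 h. CCL2 and CCL20 stand in the order of dose at 48 h, CCL5 is higher in both treated groups at 48 h and overlaps vehicle at 24 h, CCL26 has its highest values, 9.87 to 10.00, at 40 nM for 24 h, and the groups of CCL28 overlap within each time.

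The vehicle arrays of these 2 genes also differed between the times. CCL2 averaged 9.46 ± 0.09 with vehicle for 48 h and 6.87 ± 0.20 with vehicle for 24 h, and CCL20 averaged 7.60 ± 0.08 with vehicle for 48 h and 4.06 ± 0.14 with vehicle for 24 h. For both genes the order of levels was vehicle at 24 h, 40 nM at 24 h, vehicle at 48 h, 10 nM at 48 h and 40 nM at 48 h, with no overlap between neighbours. The 40 nM level at 24 h, 8.55 ± 0.11 for CCL2 and 5.59 ± 0.23 for CCL20, thus lay below the vehicle level at 48 h. Any offset between the arrays of the 2 times is part of each such pair of levels and was not separated from it.

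CCL5, which draws T cells, monocytes and eosinophils, was higher at 48 h in both treated groups, and its 24 h groups overlapped. It had 4.61, 4.97 and 4.52 with 40 nM for 24 h, against 4.43, 4.70 and 4.90 with vehicle for 24 h. The difference there was 0.02 ± 0.12, with a 95% interval from -0.23 to 0.28. At 48 h it had 5.43, 5.28 and 5.24 with vehicle, 8.98, 9.03 and 9.00 at 10 nM, and 8.27, 8.28 and 8.35 at 40 nM. The lower dose had the higher values, and no 2 of the 3 groups overlapped. The difference from vehicle was 3.69 ± 0.12 (12.9-fold) at 10 nM, the seventh highest of all genes in that comparison, and 2.98 ± 0.12 (7.89-fold) at 40 nM, the fourth highest. The value at 40 nM minus that at 10 nM was -0.71 ± 0.12 (95% interval from -0.96 to -0.45), a level 1.63-fold lower at the higher dose.

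The other probe sets of CCL5 gave the same order on the same arrays. With 40 nM for 24 h, 204655_at had 4.08, 4.27 and 4.14, against 3.87, 4.07 and 4.24 with vehicle for 24 h. At 48 h it had 4.76, 4.50 and 4.39 with vehicle, 8.50, 8.10 and 8.15 at 10 nM, and 7.21, 7.52 and 7.22 at 40 nM. Its difference from vehicle was 0.10 ± 0.13 at 24 h, 3.70 ± 0.13 at 10 nM and 2.77 ± 0.13 at 40 nM for 48 h. The third set, 1405_i_at, ranged from 2.47 to 2.55 with 40 nM for 24 h, against 2.42 to 2.58 with vehicle for 24 h. Its difference from vehicle at 48 h was 4.59 ± 0.08 at 10 nM and 3.57 ± 0.08 at 40 nM. The value at 40 nM minus that at 10 nM was -0.93 ± 0.13 with 204655_at and -1.02 ± 0.08 with 1405_i_at. The groups at 10 nM and 40 nM did not overlap with any of the 3 sets, and the 24 h groups overlapped with all 3. At 24 h the means of 204655_at lay at percentiles of 44.9 with vehicle and 46.6 at 40 nM, and those of 1405_i_at at 5.98 and 6.32. With vehicle for 48 h 1405_i_at lay at 13.8. At such low percentiles no transcript and no change cannot be told apart. All 3 sets read the same 15 RNA samples and are not further replicates. CCL5 thus had another order of the doses than CCL2 and CCL20. What the control probe sets of the 10 nM arrays show bears on the 10 nM values of all 5 genes. It bears on the dose order of CCL2 and CCL20 as on that of CCL5, and its part was not tested.

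**Figure D2:**
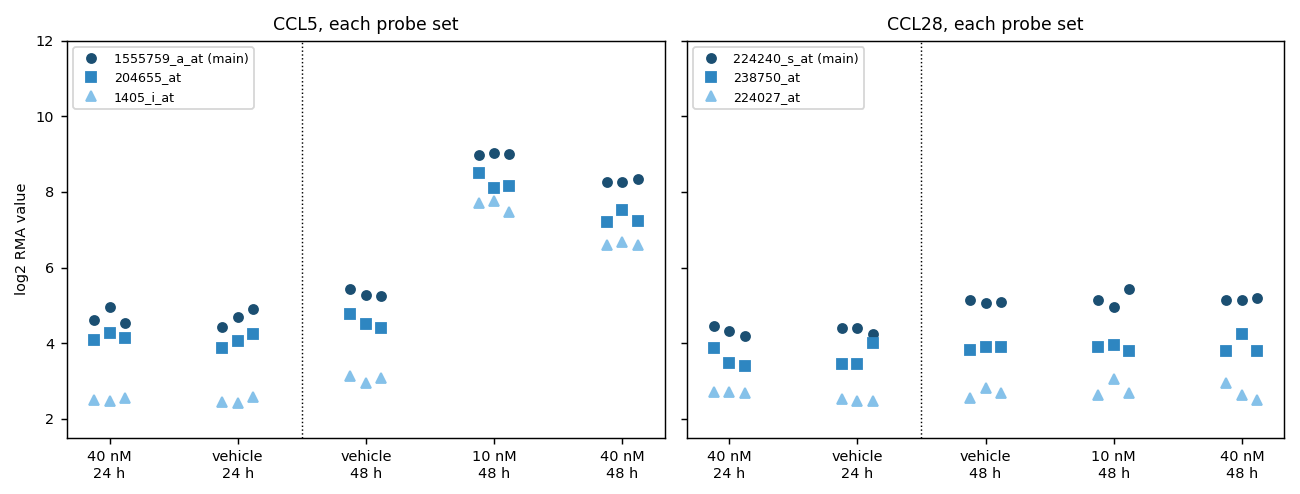
Log2 RMA value (vertical axis) of each single-symbol probe set of CCL5 (left) and CCL28 (right) on the 3 arrays of each group, with a marker for each set. All 3 sets of CCL5 lie higher at 10 nM than at 40 nM for 48 h and overlap at 24 h, and the sets of CCL28 overlap across the groups of 48 h.

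CCL26, the eosinophil chemokine, was higher in all 3 treated groups and differed more from its vehicle at 24 h than at 48 h. It had 9.87, 10.00 and 9.93 with 40 nM for 24 h, against 7.26, 6.82 and 6.72 with vehicle for 24 h. The difference was 3.01 ± 0.13 (8.03-fold), the sixth highest of all genes in that comparison, and no arrays overlapped. At 48 h CCL26 had 6.59, 6.72 and 6.72 with vehicle, 8.14, 8.23 and 7.98 at 10 nM, and 7.72, 8.08 and 7.93 at 40 nM. Both doses lay above vehicle and overlapped each other. The difference from vehicle was 1.44 ± 0.13 (2.72-fold) at 10 nM and 1.24 ± 0.13 (2.36-fold) at 40 nM. Between 40 nM and 10 nM it was -0.20 ± 0.13, with a 95% interval from -0.48 to 0.07. In the order of levels, vehicle at 48 h (6.67 ± 0.07) and vehicle at 24 h (6.93 ± 0.29) came lowest and touched, then the overlapping 40 nM and 10 nM groups of 48 h, then 40 nM at 24 h. CCL26 is read by a single probe set, 223710_at.

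CCL28 did not pass the test in any comparison. The main set, 224240_s_at, had 4.45, 4.33 and 4.18 with 40 nM for 24 h, against 4.39, 4.39 and 4.23 with vehicle for 24 h. At 48 h it had 5.15, 5.05 and 5.08 with vehicle, 5.15, 4.96 and 5.44 at 10 nM, and 5.15, 5.15 and 5.20 at 40 nM. The groups overlapped at both times. The difference from vehicle was -0.02 at 40 nM for 24 h (95% interval from -0.24 to 0.20), 0.09 at 10 nM for 48 h (from -0.13 to 0.31) and 0.07 at 40 nM for 48 h (from -0.15 to 0.29). With this set, which lay at percentiles of 49.0 to 54.5, these intervals reach no further than 0.31 on the log2 scale in either direction. With 238750_at the difference from vehicle was between -0.05 and 0.07 in the 3 comparisons, with wider 95% intervals that reached -0.39 and 0.41. With 224027_at, the dimmest set, the 24 h groups did not overlap (2.70, 2.71 and 2.67 with 40 nM, against 2.51, 2.46 and 2.47 with vehicle), and the difference of 0.22 ± 0.12 did not pass. The 95% interval of that difference ran from -0.04 to 0.47.

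**Figure D3:**
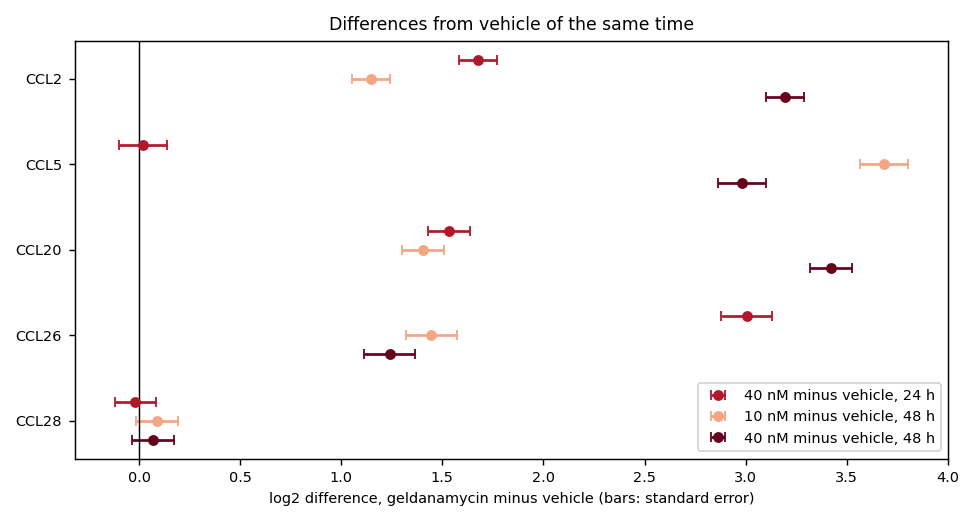
Log2 difference between geldanamycin and the vehicle of the same time (horizontal axis) for each gene, with bars for the standard error of the fit to 15 arrays. The largest difference was at 40 nM for 48 h for CCL2 (3.19) and CCL20 (3.42), at 10 nM for 48 h for CCL5 (3.69) and at 40 nM for 24 h for CCL26 (3.01), with CCL28 near 0 throughout.

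By the threshold of an adjusted p of 0.05 in limma over all genes, 3 of the 5 genes were called higher at 40 nM for 24 h (CCL2, CCL20 and CCL26) and none lower, where 31.5% of all genes were called, 14.8% higher and 16.7% lower. At 10 nM for 48 h 4 were called higher, where 26.3% of all genes were called, 14.4% higher and 11.9% lower. At 40 nM for 48 h the same 4, CCL2, CCL5, CCL20 and CCL26, were called higher, where 21.3% were called, 10.5% higher and 10.7% lower. Between 40 nM and 10 nM for 48 h CCL2 and CCL20 were called higher and CCL5 lower, where 26.4% were called, 11.9% higher and 14.5% lower. Groups that did not overlap were seen for 3, 4, 4 and 3 of the 5 genes in these 4 comparisons, against 37.6%, 40.2%, 38.8% and 39.9% of all genes. The median difference of the 5 genes was 1.53, 1.40 and 2.98 in the 3 comparisons with vehicle and -0.02 between the doses, and that of all genes lay between -0.02 and 0.00. The genes were chosen on these contrasts, so the counts describe the choice.

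The effect of 40 nM was also set against itself between the times, as the difference at 48 h minus that at 24 h. This is free of any constant offset common to the arrays of a time. A step between the times that changes with the level of a value would not cancel in it, and was not tested. The effect at 48 h minus that at 24 h was 1.52 ± 0.13 for CCL2, 1.89 ± 0.15 for CCL20 and 2.96 ± 0.17 for CCL5, so these 3 had the larger effect at 48 h. For CCL26 it was -1.77 ± 0.18, the larger effect being at 24 h. For CCL28 it was 0.09 ± 0.14. Thus 3 genes were called higher and 1 lower, where 17.3% of all genes were called, 9.18% higher and 8.11% lower.

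The likeness of patterns was measured by Pearson's r over the 15 arrays, after the mean of the vehicle arrays of the same time had been subtracted. It is a description: the arrays form 5 groups and share those vehicle means. CCL2 and CCL20 had an r of 0.990 with each other. The gene most like both was TNFAIP2, a gene induced by tumour necrosis factor, with an r of 0.994 with CCL2 and 0.992 with CCL20. TNFAIP2 differed from vehicle by 0.84 at 40 nM for 24 h, 0.69 at 10 nM and 1.73 at 40 nM for 48 h. PFKFB4, an enzyme that sets the level of a regulator of glycolysis, followed for both, at 0.989 and 0.988. The genes most like CCL5 were SERPINA3, an acute-phase protease inhibitor (0.986), ZMYM6 (0.986) and PSMB9, a subunit of the immunoproteasome (0.983). When the sets of a gene were averaged, the r of ZMYM6 with CCL5 was 0.211. SERPINA3 differed from vehicle by -0.15 at 40 nM for 24 h, 1.98 at 10 nM and 1.27 at 40 nM for 48 h, and PSMB9 by -0.24, 1.30 and 1.08. The genes most like CCL26 were DIO2, which activates thyroid hormone (0.991), GLIS3, a zinc finger transcription factor (0.990), and AGR2, a protein disulfide isomerase of secretory epithelium (0.990). AGR2 differed from vehicle by 3.29 at 40 nM for 24 h, 1.28 at 10 nM and 1.17 at 40 nM for 48 h. For CCL28 the highest values were lower, 0.854 with BARHL1, 0.846 with CDKL2 and 0.821 with ANO8, and with the mean of probe sets they were 0.321, 0.100 and 0.157. Between the other members, r was 0.578 for CCL2 with CCL5, 0.574 for CCL2 with CCL26, 0.661 for CCL5 with CCL20 and 0.155 for CCL5 with CCL26.

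Of 19 other CC chemokines listed, 15 were measured, and none was called by limma in the 5 comparisons, with 1, 0, 0, 0 and 1 at an unadjusted p under 0.05. Their group means lay at percentiles of 4.6 to 56.7 of the probe sets. For a probe set at a low percentile, no transcript and no change cannot be told apart. Their differences from vehicle ranged from -0.23 to 0.23 at 40 nM for 24 h, from -0.16 to 0.18 at 10 nM for 48 h and from -0.07 to 0.20 at 40 nM for 48 h. CCL7, which lies next to CCL2 in the genome and also draws monocytes, differed from vehicle by -0.05, -0.0035 and 0.12 in these comparisons. With array weights CCL7 was called lower at 40 nM for 24 h (-0.227, adjusted p = 0.0414, limma), and over the alternatives run up to 2 of the 15 were called in 1 direction in a comparison. CCL24, the eotaxin gene next to CCL26, differed by -0.14, -0.01 and -0.02. The difference of CCL2 at 40 nM for 48 h was 3.19 and that of CCL26 at 40 nM for 24 h was 3.01, and the neighbouring genes had no such values. Averaged over the arrays, CCL7 lay at percentile 11.3 and CCL24 at 43.0, so whether these neighbours were transcribed at all was not settled. Of 14 chemokine receptors 12 were measured and none was called by limma in the 5 comparisons, with 1, 1, 0, 1 and 1 at an unadjusted p under 0.05, and up to 3 in 1 direction under the alternatives. The group means of the receptors lay at percentiles of 5.1 to 51.2, with the same limit. CCR2, the receptor of CCL2, differed from vehicle by -0.07, -0.01 and 0.08, and CCR6, the receptor of CCL20, by -0.18, -0.17 and -0.08. CCL7, CCL24 and the receptors were named for their place beside the 5 genes, after their values were seen.

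**Figure D4:**
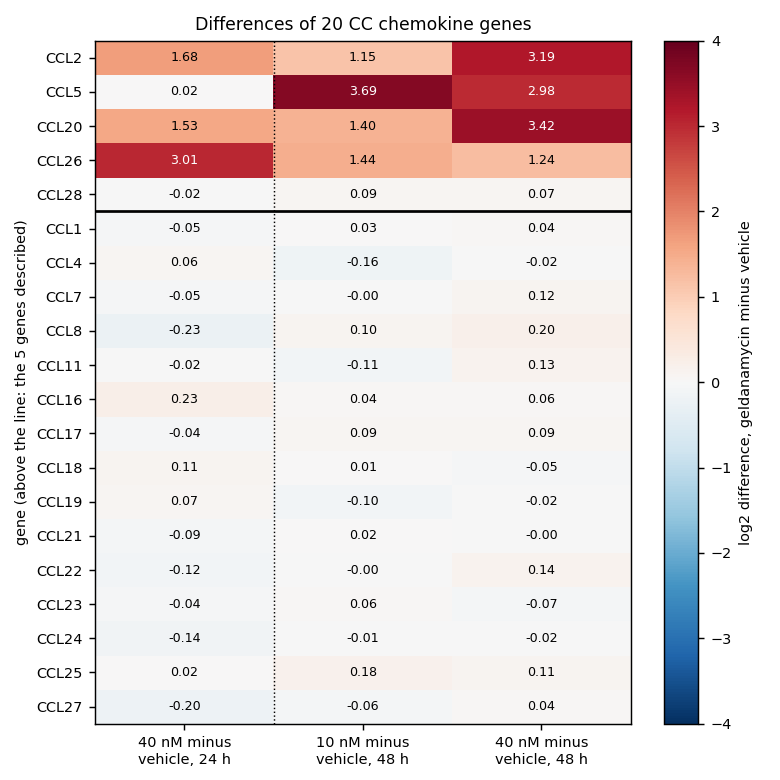
Log2 difference between geldanamycin and the vehicle of the same time for 20 measured CC chemokine genes (rows) in 3 comparisons (columns), as colour and number. The 5 genes described stand above the line and reach 3.69, while the other 15 lie between -0.23 and 0.23. The group means of those 15 were at percentiles of 4.6 to 56.7 of the probe sets.

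Genes of the pathways that are known to induce these chemokines were read from lists chosen with earlier results known. They gave a background for each member. The adjusted p-values printed are for genes picked from among those that passed, so they describe that choice. The NF-kB list, read beside CCL2, CCL5 and CCL20, had 13 of 14 genes measured. At 40 nM for 24 h 8 were higher and 0 lower, at 10 nM for 48 h 5 were higher and 1 lower, and at 40 nM for 48 h 10 were higher and 0 lower, with medians of 0.31, 0.18 and 0.39. Of all genes 14.8% were higher and 16.7% lower, 14.4% higher and 11.9% lower, and 10.5% higher and 10.7% lower in these comparisons. The higher genes numbered 7 to 8, 4 to 6 and 8 to 10 with 1 array left out. The lower ones numbered up to 2 at 24 h, without array 2 of 40 nM for 24 h, and up to 2 at 10 nM, without array 2 or 3 of 40 nM for 24 h. Without probe sets of the _x_at and _s_at classes 4, 3 and 5 were higher. TNFAIP3, an inhibitor of NF-kB that is also its target, averaged 8.09 ± 0.09 at 40 nM and 7.17 ± 0.13 with vehicle at 24 h, a rise of 0.92 (adjusted p = 3.43e-06, limma). At 48 h it averaged 7.03 ± 0.14 with vehicle, 8.89 ± 0.07 at 10 nM and 9.17 ± 0.14 at 40 nM, and rose by 1.85 (adjusted p = 4.81e-09, limma) and 2.14 (adjusted p = 2.55e-09, limma). RELB, a subunit of NF-kB, rose by 1.58 ± 0.09 at 40 nM for 48 h (adjusted p = 2.47e-08, limma) and was 0.92 higher at 40 nM than at 10 nM (adjusted p = 3.35e-06, limma). Between these doses 7 of the 13 genes were higher and 0 lower, where 11.9% of all genes were higher and 14.5% lower. The higher ones numbered 5 to 7 with 1 array left out, and 3 without _x_at and _s_at sets. CCL2 and CCL20 were higher at 40 nM than at 10 nM, and CCL5 was lower. NFKBIZ, a nuclear cofactor, fell by 1.20 at 10 nM (adjusted p = 1.46e-07, limma) and was 1.54 higher at 40 nM than at 10 nM (adjusted p = 1.7e-08, limma). NFKBIA, the inhibitor IkB alpha, rose by 1.28 at 40 nM for 24 h (adjusted p = 2.79e-09, limma) and by 1.57 for 48 h (adjusted p = 8.41e-10, limma), but its remaining probe set gave -0.12 and 0.06. NFKB2 rose by 1.02 at 24 h (adjusted p = 0.000145, limma) and was 0.45, no longer past the test, with its remaining set.

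The IRF and interferon list, read beside CCL5, had 11 of 13 genes measured. At 40 nM for 24 h, where CCL5 did not differ beyond its spread, 8 were higher, and 6 were higher at each dose for 48 h, with none lower in the 3 comparisons, where 14.8%, 14.4% and 10.5% of all genes were higher. The medians were 0.43, 0.64 and 0.29. IRF1, which transcribes interferon response genes, rose by 0.80 at 40 nM for 24 h (adjusted p = 7.41e-06, limma) and by 1.15 for 48 h (adjusted p = 6.26e-07, limma). IFIH1, a sensor of double-stranded RNA, rose by 1.48 ± 0.19 at 10 nM (adjusted p = 4.32e-05, limma) and by 1.60 ± 0.19 at 40 nM for 48 h (adjusted p = 3.44e-05, limma). Between 40 nM and 10 nM for 48 h 3 of the 11 were higher and 1 lower, where 11.9% of all genes were higher and 14.5% lower. With 1 array left out the higher ones numbered 1 to 4. The 1 lower was IRF7, at 6.53 ± 0.07 at 40 nM against 7.15 ± 0.10 at 10 nM (adjusted p = 6.73e-05, limma), the order that CCL5 also had. IRF1 and TLR3 had the other order. IRF1 was 0.48 higher at 40 nM than at 10 nM (adjusted p = 0.000965, limma) and TLR3 0.37 higher (adjusted p = 0.0197, limma). The call of TLR3 was lost without the third 10 nM array (0.28) or the third 40 nM array of 48 h (0.34), and with the mean of its probe sets (0.13).

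The IL4, IL13 and STAT6 list, read beside CCL26, had all 11 genes measured. At 40 nM for 24 h 3 were higher and 1 lower, at 10 nM for 48 h 1 was higher and 1 lower, and at 40 nM for 48 h 3 were higher and 0 lower. Those 4, 2 and 3 of 11 genes stand beside 31.5%, 26.3% and 21.3% of all genes called in either direction, a like share. The 1 higher gene at 10 nM, JAK1 (0.24), did not pass without 10 nM array 1 or 2 or vehicle array 2 or 3 of 48 h, nor with array medians subtracted, and it was 0.015 with the mean of its probe sets. The 1 higher became 2 without array 2 of 40 nM for 24 h or array 1 of vehicle for 48 h, the 1 lower became 2 without array 1 of vehicle for 24 h or array 3 of 10 nM, and the 3 at 40 nM became 1 without vehicle array 2 of 48 h. At 24 h, the time of the highest CCL26 values, the receptor chain IL4R averaged 7.23 ± 0.12 at 40 nM and 7.77 ± 0.11 with vehicle and fell by 0.54 (adjusted p = 9.13e-05, limma). JAK1, a kinase bound to that receptor, rose by 0.79 (adjusted p = 8.31e-07, limma) and STAT6 itself by 0.25 (adjusted p = 0.0028, limma). The cytokines IL4 and IL13 were not called at any dose or time.

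Of 12 cytokines and receptors that can induce the chemokines, 2 were higher at 40 nM for 24 h, 4 higher and 1 lower at 10 nM for 48 h, and 6 higher at 40 nM for 48 h, where 14.8%, 14.4% (11.9% lower) and 10.5% of all genes were called. The 2 at 24 h became 4 without array 2 or 3 of 10 nM, 5 with the dimmest 40% dropped and 1 without _x_at and _s_at sets, and the 1 lower at 10 nM became 2 without array 1 or 3 of vehicle or array 3 of 40 nM for 24 h. IL6, an inflammatory cytokine, had a difference of -0.15 ± 0.07 at 24 h, short of the test, a rise of 0.92 ± 0.07 at 10 nM (adjusted p = 1.94e-07, limma) and of 1.86 ± 0.07 at 40 nM for 48 h (adjusted p = 3.54e-10, limma). IL1A averaged 6.71 ± 0.23 at 40 nM and 4.52 ± 0.26 with vehicle for 48 h and rose by 2.19 (adjusted p = 1.06e-07, limma), though its remaining probe set without _x_at and _s_at sets gave 0.19. TNF was not called. Leukocyte markers, of which 10 of 12 were measured, had a summed level of 42.6 to 43.8 at 40 nM and 40.8 to 41.8 with vehicle for 48 h, and of 35.3 to 37.4 at 40 nM and 35.1 to 37.6 with vehicle for 24 h. Of the 10, 0 were called at 24 h, 1 at 10 nM and 2 at 40 nM for 48 h, all of them higher, where 31.5%, 26.3% and 21.3% of all genes were called, and their part in the chemokine values was not tested.

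**Figure D5:**
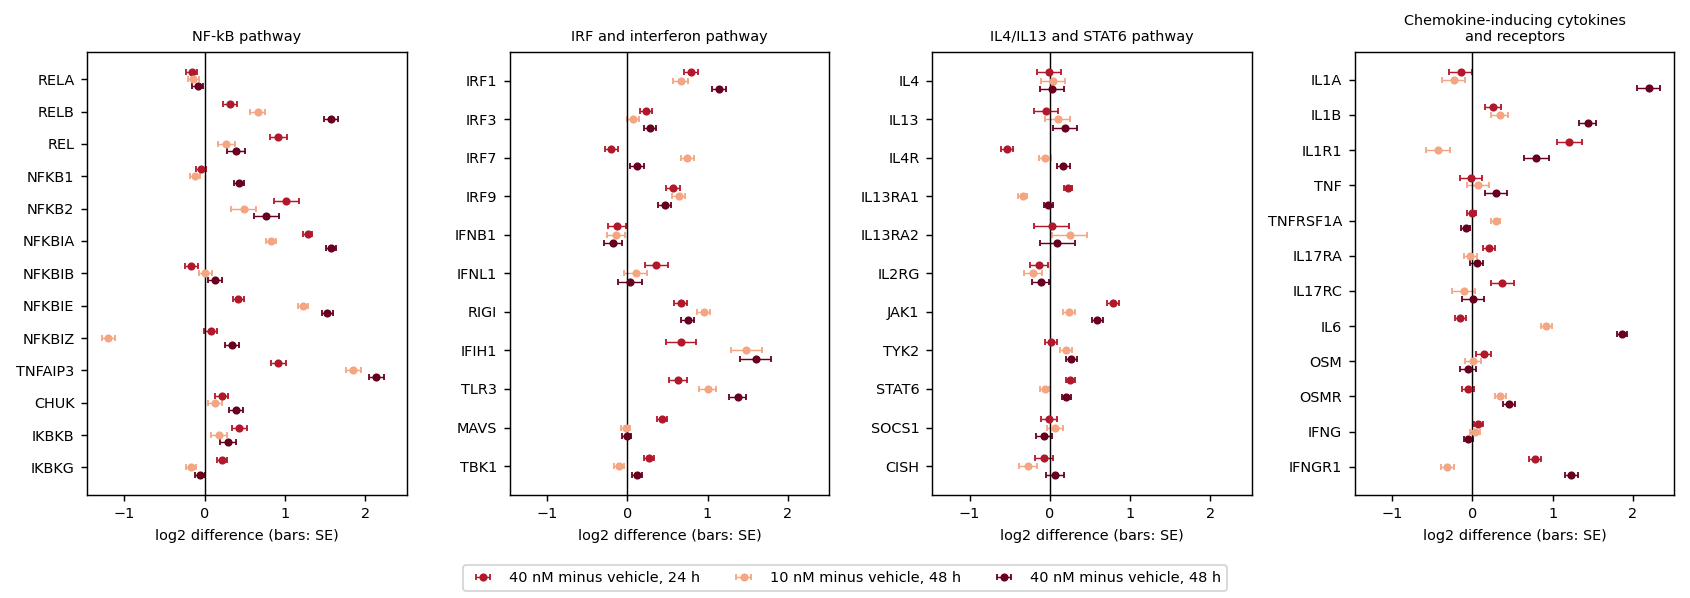
Log2 difference between geldanamycin and the vehicle of the same time (horizontal axis, bars for the standard error) for every measured gene of 4 lists of pathways that induce CC chemokines. TNFAIP3 reaches 2.14 and IL1A 2.19 at 40 nM for 48 h, NFKBIZ falls to -1.20 at 10 nM, and the IL4/IL13 list lies between -0.54 and 0.79.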

How the data were processed

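Total RNA of A549 cells was measured on 15 arrays in 5 groups of 3, as the labels name them. Each probe set has 1 log2 value per array, deposited by the authors. Per the submitters' processing notes these were computed with RMA in Affymetrix Expression Console (version not given in the sources used here). This method removes background, gives the arrays like distributions and joins the probes of a set. The table has 54675 probe sets. GEO's platform annotation, with symbols brought up to date through gene IDs for 41037, gave a single symbol to 41091 and several to 1801. Another 11721 have no name here and 62 are controls. Each of 19775 genes was read from the single-symbol probe set that was brightest on average.

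A linear model of the 5 group means over all arrays was fitted in limma 3.58.1 (R 4.3.3), with 10 residual degrees of freedom and moderated variances. P-values are two-sided and adjusted by Benjamini-Hochberg over all genes, with a threshold of 0.05. The fit was tested on simulated data. Precision rests on the number of arrays, with no read depth; the median standard error at 40 nM for 48 h was 0.0966.

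The 5 genes and all lists were chosen with earlier results of these data known. The text names every member and probe set, the 3 genes most like each member, and genes from among the 3 largest passing differences per list and comparison. The genes next to the 5, their receptors, the markers, genes named as not called, and NFKB1, NFKBIA and REL for the difference between times were added after their values were seen. Alternatives were cyclic loess, subtracted medians, a floor (20th percentile), the dimmest 40% dropped, other uses of the probe sets, the replicate block, a robust trend, array weights, fewer groups in the fit, a 2-fold threshold and each array left out. The fit without the 10 nM arrays was chosen after seeing the data. Over 30 pairs of arrays with the same replicate number, deviations from the group means had a median r of -0.06 (from -0.46 to 0.50). Over 60 pairs with different numbers it was 0.02 (from -0.58 to 0.48). Deviations within a group of 3 are not independent, so this check cannot settle whether equal numbers were paired. The labels do not say.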

Additional observations from a re-analysis of the deposited data

Results flagged for a closer look

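The effect of 40 nM geldanamycin at 48 h differed from that at 24 h, by the interaction in the limma fit, for 4 of the 5 chemokine genes, chosen on these contrasts. The difference was 1.52 for CCL2, 2.96 for CCL5, 1.89 for CCL20 and -1.77 for CCL26 on the log2 scale. The 2 effects, at 48 h and at 24 h, were 3.19 and 1.68 for CCL2, 2.98 and 0.02 for CCL5, 3.42 and 1.53 for CCL20, and 1.24 and 3.01 for CCL26.

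Among the pathway genes named, the same interaction passed for RELB (1.27), NFKBIE (1.11), TNFAIP3 (1.22), NFKB1 (0.47) and NFKBIA (0.29) of the NF-kB list and in the other direction for REL (-0.53), 5 higher and 1 lower of 13, for IL4R (0.70) and IL13RA1 (-0.25) of the IL4 and IL13 list, and for IFIH1 (0.93), TLR3 (0.74) and MAVS (-0.44) of the interferon list. It also passed for 5 of the 12 cytokines and receptors, all higher, with the largest values for IL1A (2.34), IL1B (1.18) and IL6 (2.02). That of IL1A was 0.17, short of the test, with its remaining set. Of all genes, 9.18% were called higher and 8.11% lower in this interaction. The call of NFKBIA was lost without any single array of the 4 groups but array 3 of 40 nM or of vehicle for 24 h (0.23 to 0.30), and that of REL without array 3 of 40 nM for 24 h, array 2 or 3 of vehicle for 24 h, array 1 or 3 of 40 nM for 48 h, or array 1 or 2 of vehicle for 48 h (-0.51 to -0.43). The call of IFIH1 was lost without array 1 or 2 of 40 nM for 24 h, array 2 of 40 nM for 48 h, array 1 or 2 of vehicle for 24 h, or array 3 of vehicle for 48 h, where it was 0.79 to 0.93, and it was 0.24 with the mean of its probe sets. That of IL13RA1 was lost without array 2 or 3 of 40 nM for 24 h, any array of 40 nM for 48 h, array 2 or 3 of vehicle for 24 h, or array 1 or 3 of vehicle for 48 h. IL4R had an effect of 0.17 at 48 h and -0.54 at 24 h, and MAVS one of -0.01 at 48 h and 0.43 at 24 h. Groups of 3 arrays are too small for a test of single arrays that lie far from the others.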

How the results depend on the processing

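Over 680 values of the 5 genes' differences under the alternatives, 679 kept their side of the threshold. All 492 values of differences that were called kept their sign, and of 188 of differences that were not called 11 turned sign, 9 of CCL28 and 2 of CCL5 at 24 h. The 1 off the threshold was CCL5 at 40 nM minus 10 nM for 48 h, -0.71, which is short of the 2-fold threshold. The number of members called was 2 to 3 at 40 nM for 24 h, 3 to 4 at each dose for 48 h, 2 to 3 between the doses and 3 to 4 for the difference between times. With each array left out in turn it stayed at 3, 4, 4, 3 and 4. CCL2 has no value without _x_at and _s_at probe sets, its only set being of that class, and neither have TNFAIP3, NFKBIZ, STAT6 and IRF7. Without the 10 nM arrays, no call of the 5 genes against vehicle at 40 nM changed. With the replicate block, the calls over all genes were 5974, 4920, 3864, 4894 and 3052, against 6222, 5204, 4207, 5211 and 3420 without it, and no call of the 5 genes changed. Of the other genes named, the block ended 3 calls: the difference between times of IL13RA1, -0.25 (adjusted p = 0.058, limma), and of NFKBIA, 0.29 (adjusted p = 0.0646, limma), and HIP1 at 40 nM for 48 h, 0.20 (adjusted p = 0.0586, limma). Without _x_at and _s_at sets, NFKBIA turned to -0.12 at 40 nM for 24 h and to -0.0914 at 40 nM minus 10 nM, and IFNGR1 to -0.0673 at 40 nM for 24 h. There another probe set reads the gene, and why the sets differ was not tested. Under the 2-fold threshold the NF-kB list had 2, 2 and 4 genes higher at 40 nM for 24 h, 10 nM for 48 h and 40 nM for 48 h, the interferon list 0, 2 and 3, the IL4 and IL13 list 0 in each, and the cytokine list 1, 0 and 4. The share of all genes past this threshold is not given here, so these counts have no background beside them. The estimate of array weights stopped before its tolerance was met. What signal over background limits could not be read, since the values come with no detection call.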

Other observations

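The genes next to the 5 chemokine genes in RefSeq order were read as well, 9 of 10 of them measured. At 40 nM for 24 h 1 was called higher and 2 lower, at 10 nM for 48 h 3 higher and 0 lower, and at 40 nM for 48 h 3 higher and 0 lower. These 3 of 9 in each comparison stand beside 31.5%, 26.3% and 21.3% of all genes called. The calls of HIP1, next to CCL26, at 10 nM (0.21) and 40 nM (0.20) for 48 h were each lost without any single array of the compared groups but the third of 10 nM, at 0.18 to 0.21, and with the mean of its probe sets, at 0.12 and 0.02. RDM1, a DNA repair gene next to CCL5, differed from vehicle by -0.78 at 40 nM for 24 h (adjusted p = 0.000368, limma), by 1.53 at 10 nM (adjusted p = 1.06e-06, limma) and by 0.40 at 40 nM for 48 h (adjusted p = 0.0454, limma), so at 48 h its highest level was at 10 nM, as for CCL5. The last of these calls was lost without any array of either compared group, at 0.33 to 0.47. HMGCS1, a cholesterol synthesis gene next to CCL28, was higher in all 3 comparisons, by 0.34, 0.29 and 0.51, where CCL28 was not called; the call at 10 nM was lost without 10 nM array 1 or 2 or vehicle array 1 of 48 h, at 0.24 to 0.27, and with the mean of its probe sets, at 0.16.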
